A study of Mus musculus with 6 samples.

Results

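Serine and glycine feed folate-bound carbon units into the synthesis of purines, thymidylate and methionine, and the 9 enzymes described here run that supply line: Phgdh, Psat1, Psph, Shmt1, Shmt2, Mthfd1, Mthfd2, Gldc and Mat2a. They were chosen by name, and for each symbol the entry with the highest FPKM (reads scaled to transcript length and to library size) was taken, so that 9 of the 34433 gene symbols in the expression table are covered. All 9 were found and all 9 passed the filter (1 FPKM or more in either genotype, above 0 in both), which 15784 symbols passed. The RNA came from motor neurons (MNs) made from mouse embryonic stem cells (mESCs) on the FVB/N background and treated for 5 days with 1 µM retinoic acid and 1 µM Smoothened agonist. Hb9 control cells (Hb9 MNs below) are labelled wildtype and A2 SMA cells (A2 MNs) SMN2+/+;mSmn-/-. By the study's methods both lines carry the human SMN2 transgene and a GFP reporter driven by the HB9 promoter, through which live cells were sorted, and each genotype is a single mESC line. Genotype and line therefore cannot be told apart. Each genotype was sequenced in 3 samples, but the table holds 1 FPKM value per genotype, so no difference given here has a replicate check, an SD or a test.

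Cells make serine from phosphoglycerate, an intermediate of glycolysis, in 3 steps catalysed in turn by Phgdh, Psat1 and Psph. The serine hydroxymethyltransferases, Shmt1 in the cytosol and Shmt2 in mitochondria, move a carbon from serine to tetrahydrofolate and leave glycine, and Mthfd1 and Mthfd2 interconvert the folate forms that carry this carbon. Gldc is the decarboxylase of the mitochondrial glycine cleavage system, and Mat2a makes S-adenosylmethionine, the methyl donor of the cell. In the nervous system Phgdh is known as an enzyme of radial glia and astrocytes, and Mthfd2 is known for high levels in embryonic and dividing cells.

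The genotype labels were first checked against the table. Smn1, the gene deleted in A2, was at 137 FPKM in Hb9 MNs against 5.26 FPKM in A2 MNs. Over all 15784 genes the median log2 ratio of A2 over Hb9 MNs was -0.29 (quartiles -0.89 and 0.19), so the ratios of the 9 enzymes are also given relative to this median gene. Markers of the labelled cell type did not hold equally in both lines. Mnx1, which encodes Hb9, was at 41.2 FPKM in Hb9 MNs against 44.2 FPKM in A2 MNs. The other 5 MN markers that passed the filter were lower in A2 MNs by at least 2-fold, as were 22.2% of all genes. Of these markers Lhx3 was at 0.348 FPKM and Chat at 0.344 FPKM in A2 MNs. In bulk RNA, fewer cells of a type and less RNA per cell cannot be told apart.

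Promoter sequences of the members are shown because 8 of the 9 genes lay above the median gene by 0.73 log2 units or more. They come from RefSeq (GRCm38.p6) and run from 250 bases before to 50 bases after the annotated start. All 9 symbols had an entry, and the first listed start was used. Psat1 has a second listed start (chr19:15924573-15924872, minus strand), whose window holds 0 CCAAT matches and 2 of the GC box described below, so with that start the count of promoters with CCAAT would be 1 lower and that with the GC box 1 higher. The CCAAT box, a common promoter element, was searched as CCAAT on both strands and was present in 8 of the 9 promoters, against 37.4% of 32851 promoters of that length and 38.8% of 9956 promoters of genes that passed the expression filter. At least 3 matches, as in Psat1 and Mthfd2, were held by 3.37% of all promoters and 5.33% of those of expressed genes. Shown 5′ to 3′ with the matches in capitals are the promoters of Psat1 (chr19:15925010-15925309, minus strand) and Mthfd2 (chr6:83317555-83317854, minus strand), which have the most matches, of Phgdh (chr3:98339920-98340219, minus strand), the member whose FPKM was not higher in A2 MNs, and of Shmt2 (chr10:127522395-127522694, minus strand), the member without a match.
Psat1: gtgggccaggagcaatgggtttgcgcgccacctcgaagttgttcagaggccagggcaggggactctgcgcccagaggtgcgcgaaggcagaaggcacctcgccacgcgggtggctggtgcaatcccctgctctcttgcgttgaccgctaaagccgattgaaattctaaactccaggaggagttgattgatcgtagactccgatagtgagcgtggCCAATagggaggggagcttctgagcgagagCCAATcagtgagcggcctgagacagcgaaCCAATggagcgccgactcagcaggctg
Mthfd2: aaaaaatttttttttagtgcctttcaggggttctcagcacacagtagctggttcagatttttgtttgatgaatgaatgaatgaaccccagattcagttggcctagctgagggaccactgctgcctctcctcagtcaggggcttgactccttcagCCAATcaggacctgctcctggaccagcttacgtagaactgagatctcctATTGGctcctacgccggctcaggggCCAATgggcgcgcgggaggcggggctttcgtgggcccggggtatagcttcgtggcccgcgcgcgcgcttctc
Phgdh: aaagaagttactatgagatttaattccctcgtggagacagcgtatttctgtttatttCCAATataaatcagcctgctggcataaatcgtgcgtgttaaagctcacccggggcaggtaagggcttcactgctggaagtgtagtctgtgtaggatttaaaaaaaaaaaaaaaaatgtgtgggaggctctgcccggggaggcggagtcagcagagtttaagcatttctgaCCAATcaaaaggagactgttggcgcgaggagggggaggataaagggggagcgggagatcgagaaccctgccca
Shmt2: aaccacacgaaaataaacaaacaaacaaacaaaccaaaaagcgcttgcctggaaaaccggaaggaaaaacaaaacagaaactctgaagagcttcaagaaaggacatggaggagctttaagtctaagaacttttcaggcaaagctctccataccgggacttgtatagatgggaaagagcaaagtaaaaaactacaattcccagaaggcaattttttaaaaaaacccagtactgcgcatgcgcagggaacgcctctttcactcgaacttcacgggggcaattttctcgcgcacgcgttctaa

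Over the 9 promoters there were 14 CCAAT matches, of which 12 had their centre within the 150 bases before the start. The matches of Psat1 were centred 33.5 and 3.5 bases before the start and 25.5 bases after it. The GC box, searched as GGGCGG, was in 5 of the 9 promoters (35.7% of all promoters and 65% of those of expressed genes). The core of the cyclic AMP response element, searched as TGACG, was in the promoters of Psph and Shmt1 only, against 20.8% of all promoters and 31% of those of expressed genes. TATAAA was in those of Phgdh and Mat2a (13.6% and 6.92%). The element TGATGNAA, known from promoters that respond to amino acid shortage through Atf4, had no match in the 9 windows and was present in 3.97% of all promoters and 2.17% of those of expressed genes. The E-box CACGTG, present in 7.15% and 10.3%, had none either. These counts say only where the letters stand. Matches of different motifs overlapped once, where a CCAAT of Phgdh shares a base with its TATAAA.

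**Figure D1:**
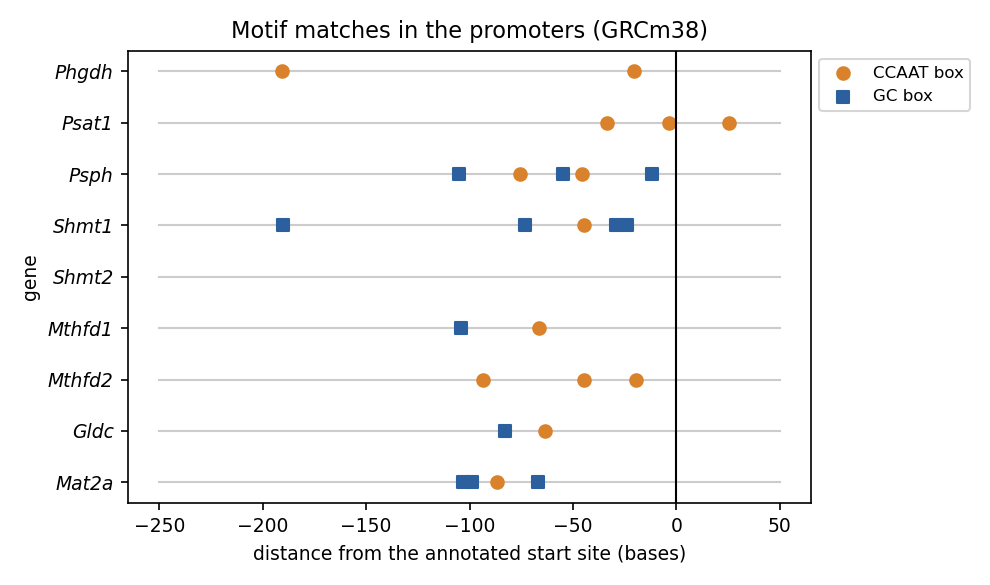
Positions of CCAAT (orange circles) and GGGCGG (blue squares) matches on either strand in the promoters of the 9 genes, as distance of the match's centre from the annotated start site in bases. CCAAT matches stand in 8 promoters, 12 of the 14 of them in the 150 bases before the start, and Shmt2 shows no match of either motif.

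Of the 9 enzymes, 8 had a higher FPKM in A2 MNs than in Hb9 MNs, where 34.1% of all 15784 genes and 37.1% of those with a mean of at least 30 FPKM were higher. Their log2 ratios ran from 0.44 for Mat2a to 1.07 for Mthfd1, and the 9th, Phgdh, had -0.27. The median over the 9 was 0.72, or 1.01 relative to the median gene. A difference of at least 2-fold was reached by 1 gene, Mthfd1, against 6.78% of all genes and 3.4% of the 5464 genes with a mean of at least 30 FPKM. Relative to the median gene it was reached by 5 genes, against 10.3%. Mthfd1 has the status FAIL, explained below, and without genes of that status the count of 1 became 0. At least 1.5-fold higher were 5 of the 9, with a background of 12.6%, or 9% among those 5464 genes. None was lower by 2-fold or by 1.5-fold, limits that 22.2% and 35.2% of all genes passed. Summed over the 9 genes, the level was 656 FPKM in Hb9 MNs against 1095 FPKM in A2 MNs.

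**Figure D2:**
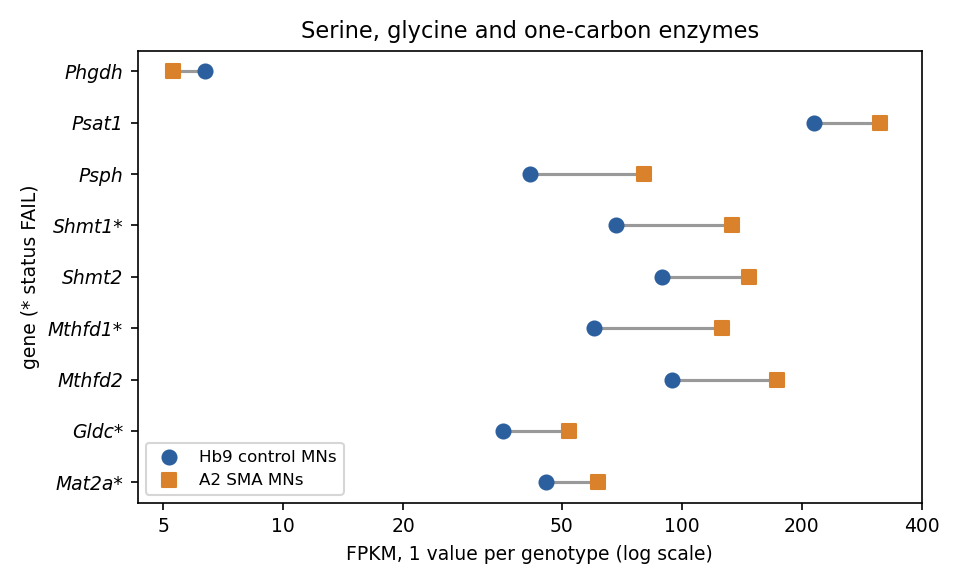
FPKM of the 9 genes (log scale) in Hb9 MNs (blue circles) and A2 MNs (orange squares), 1 value per genotype, with an asterisk on the 4 genes of status FAIL. In 8 genes the square lies to the right of the circle, and Phgdh, at 6.37 and 5.29 FPKM, lies far below the others.

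The 3 enzymes that make serine differed widely in level. Phgdh, the first enzyme of the route (NCBI m37 locus on chromosome 3, from 98117093 to 98143913), was at 6.37 FPKM in Hb9 MNs against 5.29 FPKM in A2 MNs. Its log2 ratio was -0.27, and relative to the median gene it was 0.019, so that its sign depends on the scaling. Psat1, the aminotransferase of the middle step (chromosome 19, from 15979155 to 16021827), was the most abundant member in both genotypes, at 215 FPKM in Hb9 MNs against 315 FPKM in A2 MNs. Its log2 ratio was 0.55, or 0.84 relative to the median gene. A smaller entry of the same locus, also named Psat1, had 34.4 and 45.3 FPKM and lay in the same direction. Psph, the phosphatase that releases serine (chromosome 5, from 130271434 to 130322301), was at 41.6 FPKM in Hb9 MNs against 80.4 FPKM in A2 MNs. The log2 ratio of Psph was 0.95 (1.24 relative to the median gene), higher than that of 92.8% of all genes. The level of Psat1 was 33.7 times that of Phgdh in Hb9 MNs and 59.6 times in A2 MNs.

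The low level of Phgdh and the value of Psph need their annotation beside them. When the longest coding transcript of each member in GENCODE M21 was read as words of 50 bases, 63.1% of the words of Phgdh were also found, on either strand, in transcripts of 23 other genes. Of these, 7 are in the expression table, none above 0.074 FPKM. For Psph the share was 23.9%, all with Cct6a, a chaperonin subunit gene on the opposite strand of the same locus, which was at 277 FPKM in Hb9 MNs against 393 FPKM in A2 MNs. No use of strand in the counting is stated, and without it reads from overlapping genes cannot be told apart. Mthfd1, Mthfd2 and Gldc shared no word with another gene, Psat1 1.21%, Shmt2 1.83%, Shmt1 4.81% and Mat2a 11.4%. The part of shared sequence in the levels was not tested, and the Phgdh value is uncertain for that reason.

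Both hydroxymethyltransferases were higher in A2 MNs. Shmt1, the cytosolic enzyme (chromosome 11, from 60591027 to 60625220), was at 68.2 FPKM in Hb9 MNs against 133.5 FPKM in A2 MNs, a log2 ratio of 0.97 (1.25 relative to the median gene). Shmt2, the mitochondrial enzyme (chromosome 10, from 126951995 to 126959498), was at 89.3 and 147 FPKM, a log2 ratio of 0.72 (1.01 relative). In both genotypes Shmt2 was the more abundant. Its share of the summed FPKM of the pair was 56.7% in Hb9 MNs and 52.5% in A2 MNs.

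The folate dehydrogenases followed the same order. Mthfd1, a cytosolic enzyme of 3 activities (chromosome 12, from 77356219 to 77420807), was at 60.2 FPKM in Hb9 MNs against 126 FPKM in A2 MNs. Its log2 ratio of 1.07 (1.36 relative to the median gene) was the highest of the 9 and exceeded that of 93.8% of all genes. Mthfd2, its mitochondrial counterpart (chromosome 6, from 83255685 to 83267600), was at 94.5 and 173 FPKM, a log2 ratio of 0.87 (1.16 relative). Mthfd2 made up 61.1% of the summed FPKM of the pair in Hb9 MNs and 57.8% in A2 MNs. The mitochondrial enzyme was the more abundant of each pair in both genotypes, and the cytosolic one had the higher log2 ratio.

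Gldc and Mat2a had the smallest differences among the 8 genes that were higher. Gldc (chromosome 19, from 30172939 to 30249908) was at 35.7 FPKM in Hb9 MNs against 52.1 FPKM in A2 MNs, a log2 ratio of 0.55. Mat2a (chromosome 6, from 72382285 to 72390625) was at 45.5 and 61.8 FPKM, a log2 ratio of 0.44. Relative to the median gene these ratios were 0.83 and 0.73. The order of levels was Psat1, Mthfd2, Shmt2, Shmt1, Mthfd1, then Mat2a and Psph in Hb9 MNs or Psph and Mat2a in A2 MNs, then Gldc and Phgdh. With 1 value per genotype, it cannot be said which neighbours in this order differ beyond the spread between samples. Shmt1, Mthfd1, Gldc and Mat2a have the status FAIL, which Cuffdiff gives when its test could not be computed. The median log2 ratio was -0.21 over the 2188 genes with that status and -0.30 over the 13596 others, and the median of the 5 members with the status OK stayed at 0.72.

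**Figure D3:**
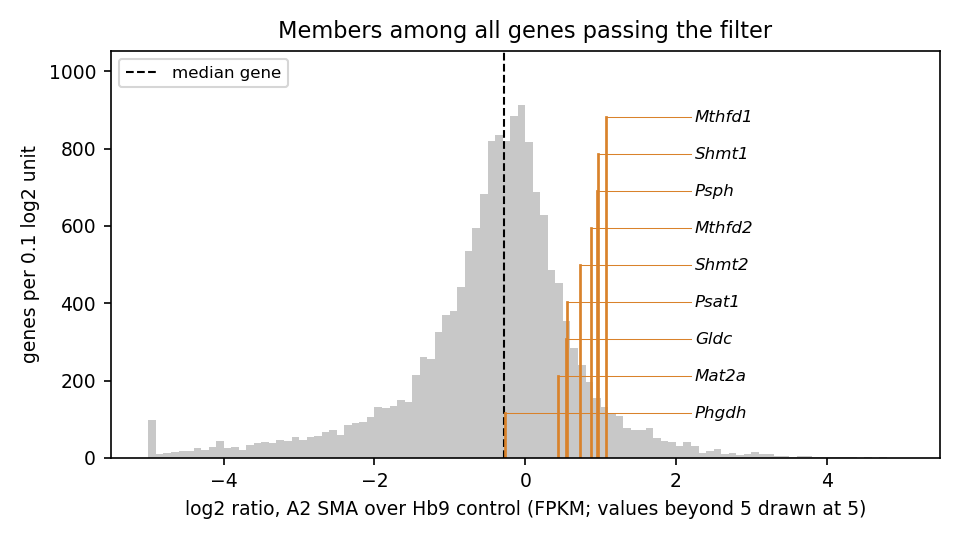
Number of genes per 0.1 unit of the log2 ratio of A2 over Hb9 MNs for the 15784 genes passing the filter (grey), with the median gene at -0.29 (dashed) and the 9 members (orange lines, whose height has no meaning). Phgdh stands at the median gene and the other 8 between 0.44 and 1.07.

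Beyond the 9 enzymes, 85 other genes of the pathway were read from lists, and 74 passed the filter. Of these 46 were higher and 28 lower in A2 MNs, beside 34.1% of all genes higher, and 53 lay above the median gene. Their median log2 ratio was 0.16, or 0.45 relative to the median gene, and 0.058 without genes of the status FAIL. At least 2-fold higher were 7 of the 74, beside 6.78% of all genes, and at least 2-fold lower were 8, beside 22.2%. Relative to the median gene 20 of the 74 were at least 2-fold higher, beside 10.3% of all genes, and 22 were higher by at least 1.5-fold without that centring, beside 12.6%. The groups differed in direction. All 6 genes of purine synthesis, a main user of folate-bound carbon, were higher, where 34.1% of all genes were, with Ppat, the first enzyme of the route, at 34.4 FPKM in Hb9 MNs against 81.1 FPKM in A2 MNs (log2 ratio 1.24). Paics, the most abundant of them, was at 116 and 206 FPKM. By at least 2-fold 1 of the 6 was higher, and 3 relative to the median gene. Impdh2 had the lowest log2 ratio of the group, only 0.0092, at 3.28 and 3.30 FPKM. Among the other cytosolic folate enzymes 6 of 8 were higher, none of these by 2-fold, and relative to the median gene 7 were higher, 3 of them (Atic, Gart and Tyms) by 2-fold. Atic (0.78) and Gart (0.75), which use formyl folate to build purines, and Tyms (0.74), thymidylate synthase, had log2 ratios close to those of the Shmt and Mthfd genes. Aldh1l1, which oxidises formyl folate and also serves as an astrocyte marker, was at 13.9 FPKM in Hb9 MNs against 3.03 FPKM in A2 MNs (log2 ratio -2.20).

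Among the mitochondrial folate genes, Mthfd1l, which releases formate from mitochondria and works beside Mthfd2, was at 29.7 FPKM in Hb9 MNs against 57.7 FPKM in A2 MNs, a log2 ratio of 0.96. Mthfd2l, a paralog of Mthfd2, was at 9.54 and 2.08 FPKM, a log2 ratio of -2.20. The level of Mthfd2 was 9.90 times that of Mthfd2l in Hb9 MNs and 83.1 times in A2 MNs. Aldh1l2, the mitochondrial relative of Aldh1l1, had a log2 ratio of -1.14. Over this group of 5 genes 2 were higher, beside 34.1% of all genes, and 3 lower, with a median log2 ratio of -0.53. At least 2-fold lower were 2 of the 5, beside 22.2% of all genes, and 0 were at least 2-fold higher, beside 6.78%.

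The partners of Gldc in the glycine cleavage system showed small differences. Amt was at 42.3 FPKM in Hb9 MNs against 61.1 FPKM in A2 MNs (log2 ratio 0.53), Gcsh had a log2 ratio of 0.15, and Dld, which other dehydrogenase complexes also use, was at 86.0 and 66.1 FPKM (-0.38). A second route to glycine starts from threonine and is known from mouse ESCs. Its first enzyme, Tdh, was at 1.90 FPKM in Hb9 MNs against 21.3 FPKM in A2 MNs, a log2 ratio of 3.49, the highest of the 74 pathway genes. Gcat, which completes that route, was at 30.4 and 40.6 FPKM (0.42). Of the 9 genes on other routes that make or use serine or glycine, Tdh included, 4 were higher and 5 lower. Of all genes 34.1% were higher. By at least 2-fold 1 of the 9 (Tdh) was higher and 2 were lower, beside 6.78% and 22.2% of all genes. The most abundant was Sptlc2, a subunit of the palmitoyltransferase that uses serine for sphingolipids, at 74.6 and 75.8 FPKM, and Gamt, which makes creatine, had the lowest log2 ratio (-2.30).

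Mat2b, the regulatory subunit of the enzyme that Mat2a encodes, was at 72.1 FPKM in Hb9 MNs against 73.6 FPKM in A2 MNs. Mettl16, which controls Mat2a splicing, was at 39.7 and 40.9 FPKM, and Mat1a, the liver form of the synthase, was under 1 FPKM in both. Of the 7 other methionine cycle genes that passed the filter none differed by 2-fold, with Ahcyl1 lowest (172 and 87.3 FPKM, log2 ratio -0.98) and Ahcy highest (0.58). In transsulfuration, which draws serine into cysteine, Cbs was at 7.29 and 14.9 FPKM (log2 ratio 1.03) and Cth at 18.4 and 30.9 FPKM (0.75). With the glutathione genes, 4 of 5 genes were higher, 1 by 2-fold, and relative to the median gene all 5 were higher, 3 by 2-fold. Of all genes 34.1% were higher, 6.78% by 2-fold, and 10.3% by 2-fold relative to the median gene. The most abundant, Gclm, was at 44.2 and 81.1 FPKM, and the lowest ratio was that of Gclc (-0.092).

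Of the 10 serine and glycine transporters, which include the mitochondrial carriers Sfxn1 and Slc25a38, 3 were higher and 7 lower, beside 34.1% of all genes higher. Their median log2 ratio of -0.35 was close to the -0.29 of all genes, and 4 lay above the median gene. At least 2-fold higher was 1 of the 10, beside 6.78% of all genes, and at least 2-fold lower were 3, beside 22.2%. Sfxn1 was at 61.5 FPKM in Hb9 MNs against 29.6 FPKM in A2 MNs (log2 ratio -1.06). Slc25a38 was at 17.3 and 19.2 FPKM (0.15). Slc1a5, a transporter of glutamine and other neutral amino acids, was at 70.3 FPKM in Hb9 MNs against 206 FPKM in A2 MNs (log2 ratio 1.55), while Slc6a5, the glycine transporter of glycinergic neurons, was at 1.86 and 0.0519 FPKM (-5.16). Among 5 folate uptake and storage genes 2 were higher, none by 2-fold, or 1 (Fpgs) relative to the median gene. Fpgs, which adds the glutamate tail that keeps folate in the cell, had a log2 ratio of 0.89, the folate receptor gene Folr1, the most abundant, 0.38, and the carrier gene Slc19a1, the lowest, -0.51.

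**Figure D4:**
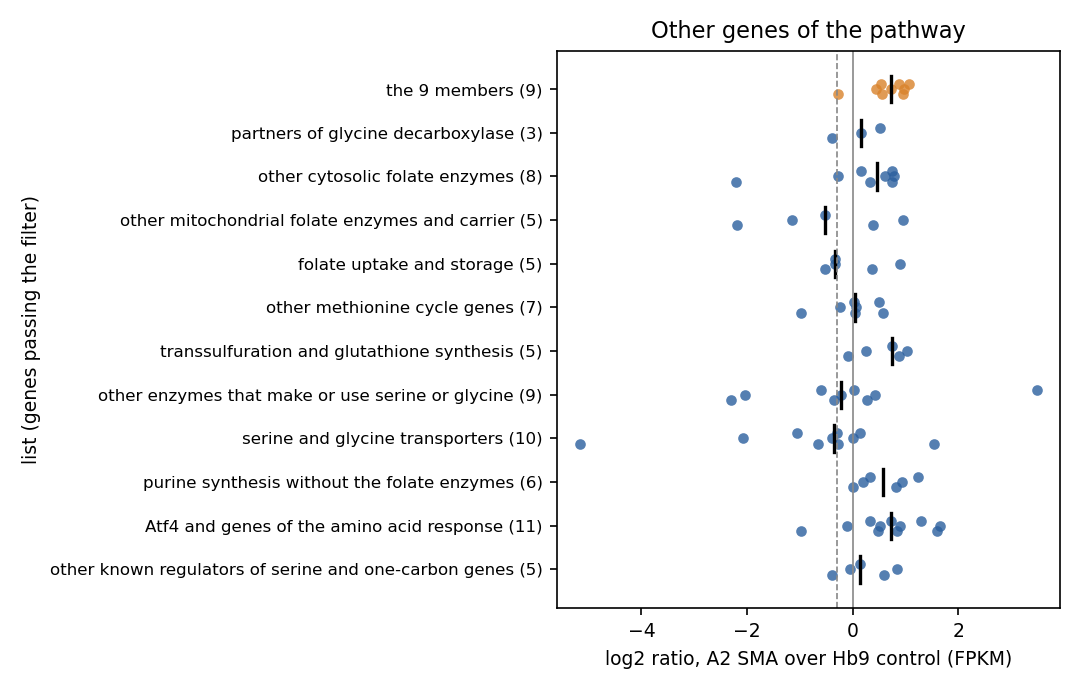
Log2 ratio of A2 over Hb9 MNs for each gene that passed the filter, by list, with the number of genes in brackets, a black bar at the list's median, a solid line at 0 and a dashed line at the median gene. Purine synthesis lies wholly above 0, while transporters and mitochondrial folate genes spread to both sides.

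Atf4 and the genes of the amino acid response, to which Phgdh, Psat1, Psph, Shmt2 and Mthfd2 are also known to belong, were read as a list of their own. Atf4 was at 230 FPKM in Hb9 MNs against 323 FPKM in A2 MNs (log2 ratio 0.49). Asns, asparagine synthetase, was the most abundant of the 11 genes that passed, at 299 and 740 FPKM (1.31). Trib3 had the highest log2 ratio (1.65) and Ddit3 the lowest (-0.98, at 64.3 and 32.5 FPKM). In all, 9 of the 11 were higher, beside 34.1% of all genes, and 3 of them by 2-fold, beside 6.78%. Relative to the median gene 6 of the 11 were at least 2-fold higher, beside 10.3%. Of 5 other regulators of these genes 3 were higher and none differed by 2-fold. The highest log2 ratio was that of Kdm4c, 0.84, and relative to the median gene Kdm4c alone of the 5 was at least 2-fold higher. Ehmt2, the most abundant, was at 150 and 115 FPKM (-0.39).

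Marker genes of other cell types also differed between the genotypes. Their counts of 2-fold differences stand beside 6.78% of all genes at least 2-fold higher and 22.2% at least 2-fold lower. Counts of genes higher or lower by any amount stand beside 34.1% of all genes higher and 10409 of 15784 lower. All 10 pluripotency markers were higher in A2 MNs by at least 2-fold, from Dppa5a (log2 ratio 1.16) to Tdgf1 (3.37), and their summed level was 287 FPKM in Hb9 MNs against 1876 FPKM in A2 MNs. All 8 neuronal markers that passed the filter were lower by at least 2-fold (Tubb3 and Map2 were not analysed here), from Nefm (-4.56) to Stmn2 (-1.63), with sums of 1204 and 131 FPKM. Of 8 markers of neural progenitors and radial glia, the cells in which Phgdh is known, 7 were lower by at least 2-fold, from Hes5 (-7.55) up to Pax6 (-0.070), the exception, with sums of 2283 and 224 FPKM. Markers of dividing cells differed less, from Mki67 (-0.29) to Mcm3 (1.05), with sums of 1013 and 1262 FPKM. Of these 8 markers 5 were higher, 1 of them by 2-fold, and 7 lay above the median gene. MN markers summed to 216 and 52.5 FPKM and ran from Lhx3 (-6.31) to Mnx1 (0.10). Among 7 fibroblast markers, which would mark the feeder layer, 2 were higher, 1 by 2-fold, and 5 lower, 4 by 2-fold. They ran from Lum (-1.49) to Thy1 (1.18), with sums of 67.7 and 36.3 FPKM. The 3 glial markers that passed were all lower, 2 of them by 2-fold, from Sox10 (-3.62) to Pdgfra (-0.69). The 5 endoderm markers that passed were lower too, 2 of them by 2-fold, from Foxa2 (-1.62) to Dab2 (-0.18). Relative to the median gene, 1 of these 5 was higher. Sums over all listed genes were 26.6 and 7.50 FPKM for glia and 122 and 68.4 FPKM for endoderm. No marker in the table was at 0 FPKM in either genotype. The part of cell composition in the levels of the 9 enzymes was not tested.

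**Figure D5:**
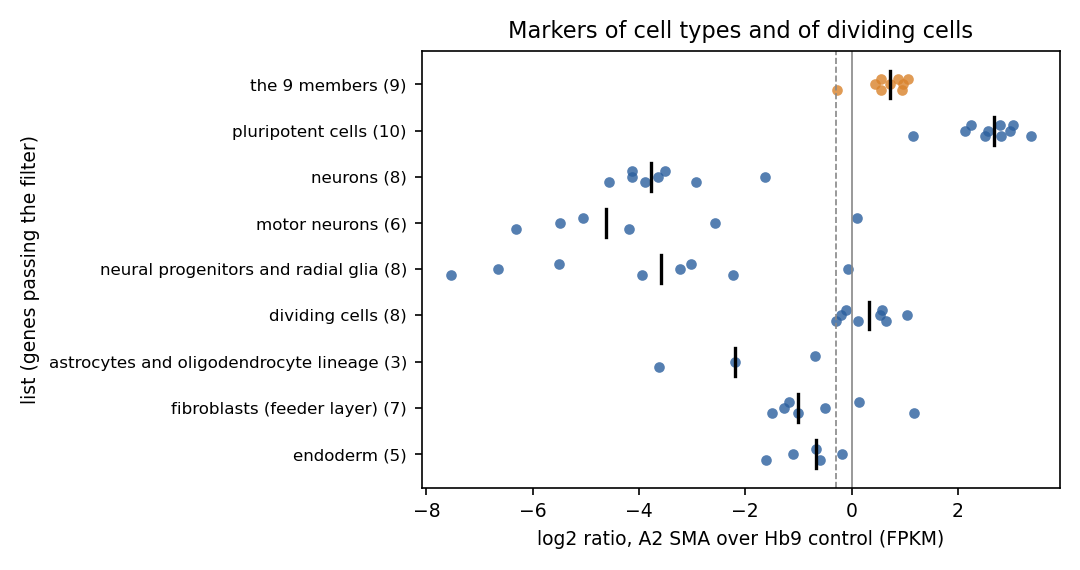
Log2 ratio of A2 over Hb9 MNs for the 9 members (orange) and for marker genes (blue), with medians as black bars, a solid line at 0 and a dashed line at the median gene. The median of the members, 0.72, lies between those of the markers of dividing cells (0.33) and of pluripotent cells (2.69).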

How the data were processed

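RNA of sorted MNs from 3 samples of each genotype was made into libraries with the TruSeq RNA kit and sequenced from a single end. The authors checked reads with FastQC 0.10.1, trimmed them with CutAdapt, mapped them to NCBI m37 with TopHat 2.04 and an Ensembl annotation, and ran Cufflinks and Cuffdiff. The table deposited by the authors gives 1 FPKM value per genotype and locus, with a status. Its fold changes, test statistics, p and q hold the authors' own comparison and were not used. The table holds no values or read totals per sample, so no test and no counting error could be computed from it, and the depth of each sample was not used here.

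For a symbol with several entries the most abundant was taken, and genes were kept at 1 FPKM or more in either genotype and above 0 in both. A symbol listed with others in a locus takes that locus' value. Log2 ratios have no pseudocount, and 2-fold was the limit of a call. The chromosome bounds given are those of the Cuffdiff locus, which can span several genes, as it does for Psat1, Psph, Shmt1, Shmt2 and Gldc. Starts were shifted to count from 1. Python 3.11.15, numpy 2.4.6, pandas 2.3.3 and matplotlib 3.10.9 were used, and the procedure was tested on simulated data. Alternatives were other scalings, pseudocounts, FPKM filters and fold limits, summed entries, and leaving out the status FAIL or shared loci.

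Members and lists were chosen with earlier results of these data known. Named were the 9 members and, of each list, the lowest and highest log2 ratio, of pathway lists also the most abundant gene, with Smn1, Tdh, Gcat, Mthfd1l, Atf4 and Asns. Aldh1l2, Tyms, Gcsh, Mat2b, Mettl16, Mat1a, Cth, Sfxn1, Slc25a38, Chat and Cct6a were added after their values were seen.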

Additional observations from a re-analysis of the deposited data

How the results depend on the processing

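The count of members at least 2-fold higher, 1 as reported, was 5 with ratios centred on the median gene, 5 with scaling to the upper quartile, 4 with scaling to Gusb, Pgk1 and Rpl13a, 5 at a 1.5-fold limit, and 0 when genes of the status FAIL were left out, which leaves 5 members. The log2 ratio of Phgdh, -0.27, became 0.019 when centred on the median gene and 0.023 with the upper quartile. The median log2 ratio of the 74 other pathway genes, 0.16, was 0.058 without the status FAIL, which leaves 61 of them, and 0.45 when centred on the median gene. No member was at least 2-fold lower under any alternative run. Leaving out each sample in turn was not possible, since the table holds 1 value per genotype. No paired analysis was possible because of the same limit. Sampling error at these levels is unknown.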

Other observations

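The word count made for the members was repeated for the 85 other pathway genes. Of the 94 genes in all, 42 shared no word of 50 bases with another gene's transcripts and 7 shared at least 50% of their words. These 7 were Amd1 (87.6%), Mthfs (87.6%), Ahcy (77.0%), Impdh2 (73.9%), Phgdh (63.1%), Bhmt (61.5%) and Folr2 (56.7%). The higher of the 2 genotypes' values was at most 6.37 FPKM in each of the 7, with a median of 0.923 FPKM. This upper bound is the value of Phgdh itself in Hb9 MNs. Over the 87 genes that shared less, the median of that value was 41.5 FPKM, and 11 of them were at or below 6.37 FPKM. This count was made after the level of Phgdh had been seen. The part of shared sequence in these levels was not tested.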
